A study of Homo sapiens with 18 samples.

Results

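The mitochondrial ribosome is built from proteins encoded in the nucleus, whose mRNAs are translated by cytosolic ribosomes before the proteins are imported into mitochondria. The genes described here are those whose symbol starts with MRPL or MRPS followed by a number, with 20 or more footprint reads summed over the 9 ribosome profiling libraries. Of 38716 gene symbols in the tables, 78 matched and all 78 passed, from MRPL11 with 97 footprint reads to MRPS21 with 622, so no gene lay just outside the threshold. By subunit, 51 encode large-subunit and 26 small-subunit proteins. MRPS18A and MRPS30 carry an S name but belong to the large subunit. The remaining gene, MRPS36, was later assigned to a metabolic enzyme complex. In all, 46 have a counterpart in bacterial ribosomes and 31 are found in mitochondria only.

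The mitochondrial ribosome translates the few proteins that mitochondrial DNA encodes, all of them hydrophobic core subunits of the respiratory chain and the ATP synthase. Its large subunit carries the peptidyl transferase centre and the exit tunnel, and its small subunit decodes the mRNA. Its protein genes are expressed in almost all cells, fibroblasts included, and factors such as NRF1 and the ETS protein GABP are known regulators of nuclear genes for mitochondrial proteins.

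The cells were IMR90, an established human lung fibroblast line of fetal origin. Proliferating cells of low passage formed the young group, and cells that had reached replicative senescence at high passage formed the old group. The ICM group was also of low passage and received inflachromene, a compound known to bind HMGB1 and HMGB2. No genotype or transgene set the groups apart. In each of the 3 conditions, 3 replicates were profiled by Ribo-seq, which sequences ribosome-protected mRNA fragments (footprints), and by mRNA-seq of the same lysates. The methods call the lysates independent, but which IMR90 isolate each came from was not given in the sources used here, so p-values measure the spread between these lysates. Levels are given in CPM (reads per 1e+06 reads, scaled by the TMM method), and changes as fitted log2 differences with their standard errors (SE) from edgeR's quasi-likelihood test. A change passed where its adjusted p over all tested genes was under 0.05. In bulk samples such as these, fewer cells of a type and less RNA per cell cannot be told apart.

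Depth differed far more in Ribo-seq than in mRNA-seq. mRNA-seq held 7902301 to 14144345 reads per library and 28389 to 44985 reads of the 78 genes. Ribo-seq held 46239 to 1718521 coding sequence (CDS) reads, of which 183 to 7326 fell in these genes, and the 3 ICM libraries held only 829, 285 and 183 of them. Young replicate 1, old replicate 2 and ICM replicate 3 were shallow and also stood apart in Ribo-seq. In these, the summed level of 8 genes with an mRNA fitted at least 5 log2 units higher in ICM than in both other conditions reached 673 CPM in young replicate 1, while the other young libraries held 78.3 and 69.99 CPM. Old replicate 2 held 825 CPM, while the other old libraries held 94.6 and 80.04 CPM. The summed level of 6 genes at least 3 log2 units higher in young reached 891 CPM in ICM replicate 3, while the other ICM libraries held 271 and 300 CPM. In old replicate 2 only 40.6% of the Ribo-seq reads over all genes were in the CDS, against 77.5% to 95.8% in the other libraries, although the share was 86.0% within the mitochondrial ribosomal protein genes. The Ribo-seq calls and the fitted footprint changes in ICM vs young and ICM vs old below are therefore also given without these 3 lysates, as are those of MRPL13, MRPS18C and MRPL3 in old vs young. Summed levels and ratios are given per lysate, and levels per kilobase over all 3 replicates. Of the 9 fibroblast markers examined, each had at least 65.1 CPM in every mRNA-seq library, whereas CDH5 was at 0 and EPCAM, CDH1, PECAM1 and PTPRC did not exceed 1.05 CPM. Other markers of those cell types were present, since the epithelial KRT19 had a mean of 14.4 CPM in young, the endothelial VWF 3.38 CPM in ICM, and CD68 of the leukocyte list 20.6 CPM in young, 33.2 CPM in old and 58.6 CPM in ICM. Of the 9 fibroblast markers, 7 fell in ICM vs young (median -0.91), and the part of these markers in the results was not tested. MKI67, a marker of cycling cells, had a mean mRNA level of 153 CPM in young, 30.9 CPM in old and 0.789 CPM in ICM, so proliferation moved with condition and its part in the results was not tested.

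To show the DNA from which these genes are transcribed, the 200 bases before the RefSeq start (GRCh38.p14, strand as annotated) are printed for genes on which the mRNA results below turn. Capitals mark exact matches, on either strand, to 7 motifs: NRF1 (GCGCATGC), ETS (CCGGAAG), YY1 (AAGATGG), SP1 (GGGCGG), the CCAAT box (CCAAT), the TATA box (TATAAA) and the E box (CACGTG). No motif contains another. MRPL14 and MRPL41 were among the 3 largest mRNA rises with ICM. MRPS31 and MRPS18C rose most in ICM vs old beside MRPL14, and MRPL3, MRPS27 and MRPL11 were the largest falls in old cells.
MRPL14, chr6:44127309-44127508, minus strand: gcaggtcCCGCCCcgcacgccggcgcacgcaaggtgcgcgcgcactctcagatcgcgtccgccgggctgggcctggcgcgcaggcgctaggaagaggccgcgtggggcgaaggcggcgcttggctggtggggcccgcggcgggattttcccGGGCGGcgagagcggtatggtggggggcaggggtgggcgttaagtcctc
MRPL41, chr9:137551679-137551878, plus strand: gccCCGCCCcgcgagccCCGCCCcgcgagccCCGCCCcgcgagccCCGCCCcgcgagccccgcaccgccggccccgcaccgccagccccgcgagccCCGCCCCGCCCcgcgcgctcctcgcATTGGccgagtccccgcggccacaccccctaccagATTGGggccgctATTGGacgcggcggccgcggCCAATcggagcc
MRPS31, chr13:40771191-40771390, minus strand: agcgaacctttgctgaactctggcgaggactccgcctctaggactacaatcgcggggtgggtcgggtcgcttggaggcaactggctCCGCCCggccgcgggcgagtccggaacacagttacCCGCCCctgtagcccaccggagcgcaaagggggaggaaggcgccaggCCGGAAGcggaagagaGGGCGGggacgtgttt
MRPS18C, chr4:83455858-83456057, plus strand: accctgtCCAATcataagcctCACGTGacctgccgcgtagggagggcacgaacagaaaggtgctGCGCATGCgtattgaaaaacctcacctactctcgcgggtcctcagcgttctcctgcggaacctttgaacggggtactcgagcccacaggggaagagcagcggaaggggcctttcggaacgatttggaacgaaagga
MRPL3, chr3:131502972-131503171, minus strand: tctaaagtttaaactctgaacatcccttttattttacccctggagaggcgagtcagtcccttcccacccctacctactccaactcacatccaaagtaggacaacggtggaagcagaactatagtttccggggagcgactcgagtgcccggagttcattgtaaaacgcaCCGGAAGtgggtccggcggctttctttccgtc
MRPS27, chr5:72320241-72320440, minus strand: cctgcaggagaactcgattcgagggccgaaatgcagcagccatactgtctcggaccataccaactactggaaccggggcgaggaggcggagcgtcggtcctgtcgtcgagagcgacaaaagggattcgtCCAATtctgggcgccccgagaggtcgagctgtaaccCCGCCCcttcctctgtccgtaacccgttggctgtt
MRPL11, chr11:66438849-66439048, minus strand: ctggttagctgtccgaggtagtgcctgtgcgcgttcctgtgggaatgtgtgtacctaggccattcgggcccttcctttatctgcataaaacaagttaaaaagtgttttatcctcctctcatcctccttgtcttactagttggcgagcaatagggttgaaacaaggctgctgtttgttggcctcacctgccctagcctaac
MRPL14 and MRPL41 showed SP1 letters, and MRPL41 also had 4 CCAAT boxes within 79 bases of its start. MRPS31 and MRPL3 each had an ETS match at 32 to 26 bases before the start. MRPS18C had its NRF1 match at 136 to 129 bases before the start, and MRPL11 had no match in this window.

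Over the 250 bases before the start, promoters of 69 of the 78 genes were in the table. MRPL10, MRPL13, MRPL15, MRPL2, MRPL21, MRPL23, MRPL35, MRPS28 and MRPS36 had no entry. The ETS letters were found in 23 of 69 promoters (33.3%), against 15.9% of 10384 genes tested in mRNA-seq and 8.82% of all 27305 promoters. NRF1 letters were in 6 (8.70%, against 4.82% of tested genes) and YY1 letters in 7 (10.1%, against 3.35%). SP1 letters were in 38 (55.1%, against 67.4%), CCAAT boxes in 19 (27.5%, against 34.9%), E boxes in 6 (8.70%, against 8.77%) and TATA boxes in 2 (2.90%, against 5.37%). The median GC content was 60.8% over these promoters and 64.8% over the tested genes. These matches are descriptions of letters and not binding sites. In ICM vs young the 23 genes with ETS letters had a median mRNA change of -0.10 (log2) and the 46 without had -0.08. These medians were -0.22 and -0.12 in old vs young. For YY1, with and without letters, they were 0.01 and -0.10 in ICM vs young and 0.05 and -0.15 in old vs young. For SP1 they were -0.09 and -0.10, then -0.12 and -0.18. CCAAT boxes gave 0.01 and -0.10, then -0.08 and -0.18. E boxes gave 0.11 and -0.10, then -0.17 and -0.14. TATA boxes, in 2 genes, gave -0.37 and -0.09, then -0.21 and -0.14. Of the 6 with NRF1 letters (MRPL17, MRPL22, MRPL32, MRPL52, MRPS18B and MRPS18C), 4 rose and 1 fell in ICM vs young (median 0.39), against 16 rises and 19 falls among the 63 without (median -0.10). They gave 3 rises and 2 falls in old vs young (median 0.20), and the 63 without gave 8 and 28 (median -0.14). Over all genes tested, 34.9% rose and 36.1% fell in ICM vs young, and 32.4% and 33.7% in old vs young. Differences between genes with and without a motif were not tested.

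With ICM, the mRNAs of this gene set moved in both directions (the plot of mRNA change by gene). Of the 78 genes, 21 rose and 23 fell in ICM vs young. The 44 that passed were 56.4% of the set, against 71.0% of the 13173 genes tested (34.9% up and 36.1% down). The fitted changes ran from -0.86 for MRPL11 to 0.87 for MRPL14, with a median of -0.09 beside -0.01 over all genes. Rises and falls were close in number under other settings too, with 21 and 22 under RLE scaling, 21 and 20 with library size only, and 20 and 19 in DESeq2, so which direction held more genes was not fixed. Both subunits were mixed, with 13 rises and 14 falls among the 51 large-subunit genes and 8 rises and 9 falls among the 26 small-subunit genes. The 46 genes with a bacterial counterpart gave 11 rises and 14 falls, and the 31 found in mitochondria only gave 10 and 9. In the 10 small-subunit genes found in mitochondria only, 5 rose and 4 fell.

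**Figure D1:**
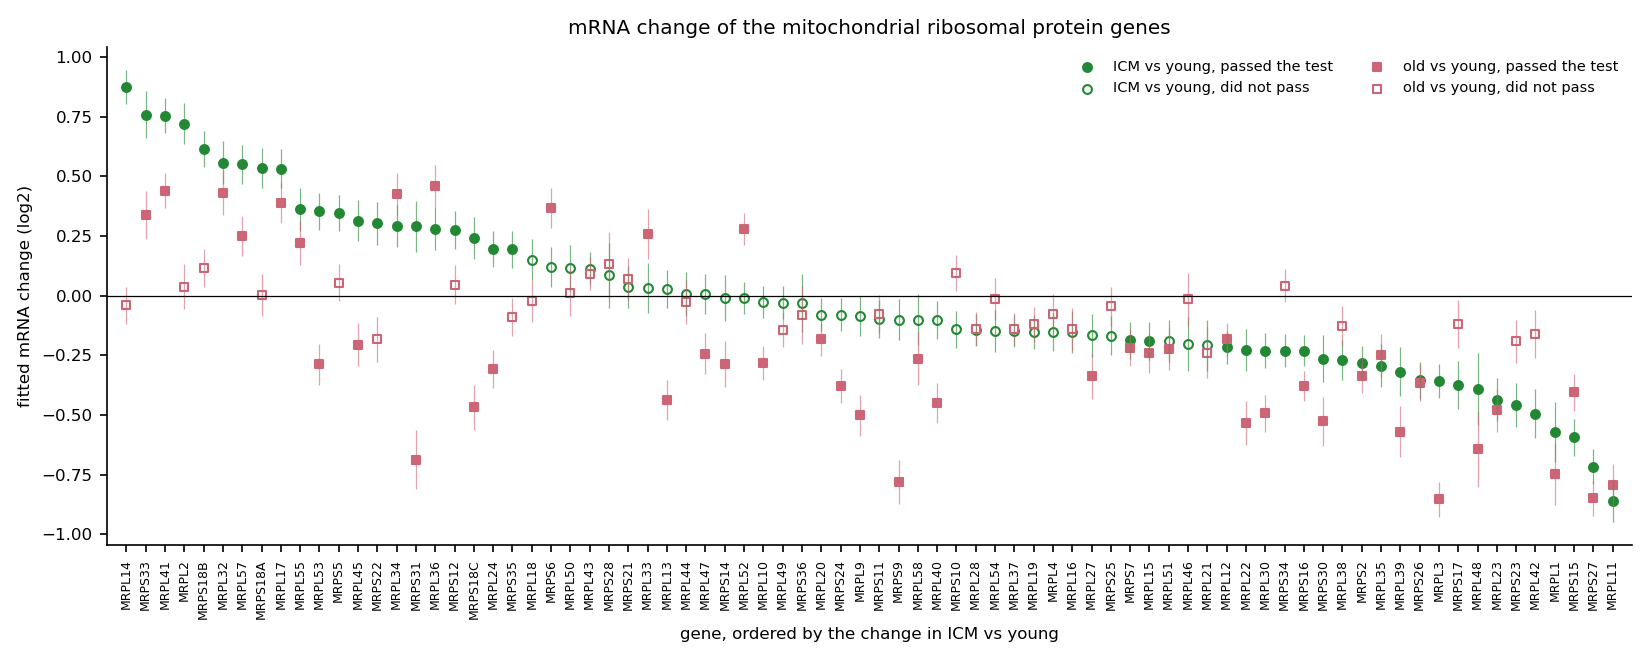
Fitted mRNA-seq change (log2, vertical axis) of each of the 78 genes (horizontal axis, ordered by ICM vs young) for ICM vs young (green circles) and old vs young (red squares), which share the young libraries; bars are SE and filled symbols passed the test. ICM values run from 0.87 to -0.86, 21 above and 23 below 0 among those that passed, and old values from 0.46 to -0.85, 11 above and 35 below.

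MRPL14, a large-subunit protein at the face that meets the small subunit, had the largest rise. Its mRNA was at 56.7, 50.3 and 49.1 CPM in young, 50.9, 54.3 and 45.8 CPM in old and 94.4, 94.7 and 96.1 CPM in ICM. All ICM libraries lay above all others, and young and old overlapped. In mRNA-seq the replicates of 74.5%, 67.1% and 66.3% of all tested genes did not overlap in ICM vs young, old vs young and ICM vs old. Genes named for the largest changes were picked in these same libraries, so a lack of overlap adds no support for them. The fitted change was 0.87 in ICM vs young (SE 0.07, adjusted p = 3.48e-10), a 1.83-fold rise, and -0.04 in old vs young (SE 0.08, adjusted p = 0.656).

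MRPS33, a small-subunit protein found in mitochondria only, was at 29.0, 24.7 and 24.3 CPM in young, 34.5, 36.0 and 27.3 CPM in old and 41.2, 45.4 and 44.7 CPM in ICM. ICM lay above both other groups, and old replicate 3 lay within the range of young. The change was 0.76 in ICM vs young (SE 0.10, adjusted p = 3.83e-07). MRPL41, a large-subunit protein found in mitochondria only, was at 49.5, 52.1 and 57.1 CPM in young, 73.1, 69.5 and 73.3 CPM in old and 84.6, 86.2 and 97.3 CPM in ICM. The 3 groups did not overlap and stood in the order young, old, ICM. Its change was 0.75 in ICM vs young (adjusted p = 4.43e-09) and 0.44 in old vs young (adjusted p = 1.95e-05).

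Among the falls, MRPL11 belongs to the part of the large subunit where translation factors dock. It was at 46.2, 40.1 and 37.7 CPM in young, 23.9, 24.7 and 22.5 CPM in old and 24.2, 21.3 and 22.3 CPM in ICM. Both old and ICM lay below young and overlapped each other. The change was -0.86 in ICM vs young (SE 0.09, adjusted p = 1.03e-08) and -0.79 in old vs young (SE 0.09, adjusted p = 5.44e-08). Its exons share bases with those of PELI3 on the opposite strand, and whether counting used strand was not given in the sources used here.

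MRPS27, a small-subunit protein with RNA-binding pentatricopeptide repeats, was at 71.2, 68.4 and 67.5 CPM in young, 37.4, 42.0 and 34.9 CPM in old and 43.7, 41.4 and 40.6 CPM in ICM. Again all young libraries lay above all others. The change was -0.72 in ICM vs young (adjusted p = 1.11e-08) and -0.85 in old vs young (adjusted p = 1.33e-09), and MRPS27 shares exon bases with PTCD2 on the opposite strand. MRPS15, whose bacterial counterpart is an early rRNA-binding protein, had a mean of 76.7 ± 4.8 CPM in young, 57.7 ± 5.0 CPM in old and 50.8 ± 4.0 CPM in ICM (SD, n = 3), a change of -0.59 in ICM vs young (adjusted p = 4.77e-07).

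**Figure D2:**
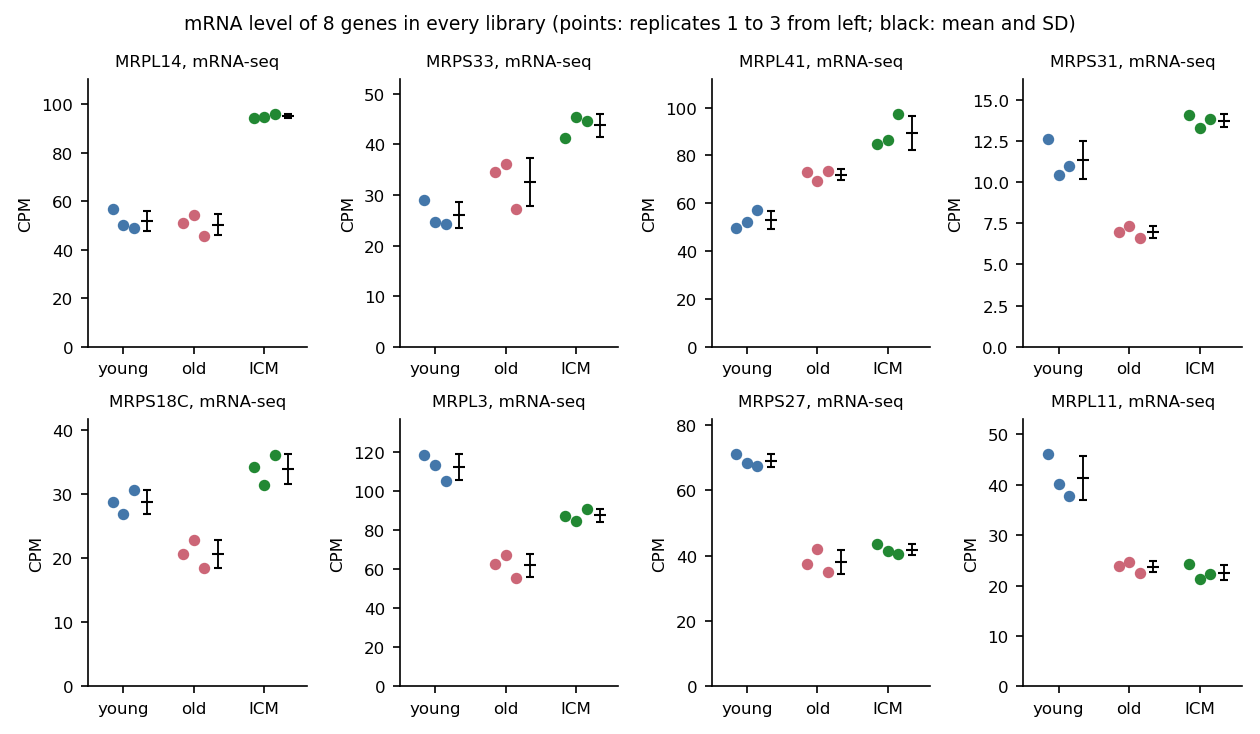
mRNA-seq level (CPM, vertical axes from 0) of 8 genes in the 3 replicates of young (blue), old (red) and ICM (green), with the mean and SD in black. MRPL14 sits at 94.4 to 96.1 CPM in ICM and under 57 CPM elsewhere, MRPS31 and MRPS18C are lowest in old, and MRPS27 and MRPL11 are high in young only.

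In old cells more of these mRNAs fell than rose. Of the 78 genes, 11 rose and 35 fell in old vs young. The 46 that passed were 59.0% of the set, against 66.1% of all genes tested (32.4% up and 33.7% down). The median change was -0.15, beside -0.01 over all genes. With scaling by library size only, 8 rose and 45 fell, and the medians were -0.25 in the set and -0.11 over all genes. Among large-subunit genes, 9 rose and 24 fell, and among small-subunit genes, 2 rose and 11 fell. The genes with a bacterial counterpart gave 7 rises and 24 falls, and those found in mitochondria only gave 4 and 11.

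MRPL3, a large-subunit protein that reaches towards the peptidyl transferase centre, fell most in old cells. It was at 118, 113 and 105 CPM in young, 62.8, 67.4 and 55.6 CPM in old and 87.1, 84.3 and 90.9 CPM in ICM. The groups did not overlap, with ICM between young and old. The change was -0.85 in old vs young (SE 0.07, adjusted p = 9.58e-10), -0.36 in ICM vs young (adjusted p = 0.000119) and 0.49 in ICM vs old (adjusted p = 4.18e-06). A long non-coding RNA on the opposite strand shares some of its exon bases.

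The largest rises in old cells were those of MRPL36 (0.46, SE 0.09, adjusted p = 0.000113), MRPL41 and MRPL32 (0.43, SE 0.09, adjusted p = 0.000285). MRPL36, a small large-subunit protein, was at 32.5, 31.2 and 29.3 CPM in young, 41.6, 47.2 and 38.3 CPM in old and 36.1, 41.5 and 35.4 CPM in ICM, so that both old and ICM lay above young. MRPL32, which the protease with the SPG7 subunit trims in mitochondria, was at 42.2, 34.0 and 32.1 CPM in young, 48.3, 52.5 and 43.6 CPM in old and 53.3, 51.3 and 53.5 CPM in ICM. The lowest old library of MRPL32 lay just above the highest young one.

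In the direct comparison of the treated with the senescent cells, more of the mRNAs were higher in the treated ones. In ICM vs old, 30 genes rose and 8 fell. The 38 that passed were 48.7% of the set, against 63.3% of all genes tested (30.7% up and 32.6% down), and the median change was 0.12, beside -0.01 over all genes. With library size only, 42 rose and 1 fell, and the share of rises among the calls of all genes was 61.1% in place of 48.6%. This scaling moved the median of all genes by 0.12.

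Among genes that fell in old cells and rose with ICM, each against the same young libraries, MRPS31, MRPL53 and MRPS18C had the largest values and are given first. MRPS31, a small-subunit protein found in mitochondria only, was at 12.7, 10.5 and 10.96 CPM in young, 6.99, 7.34 and 6.58 CPM in old and 14.1, 13.3 and 13.8 CPM in ICM. The groups did not overlap. The change was -0.69 in old vs young (adjusted p = 3.88e-05), 0.29 in ICM vs young (adjusted p = 0.0202) and 0.98 in ICM vs old (SE 0.11, adjusted p = 1.43e-07), the largest rise in that comparison. The rise in ICM vs young failed under 5 of 18 alternatives, with adjusted p up to 0.111. The annotation lists 4 MRPS31 pseudogenes, so reads could be placed among copies.

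MRPS18C, the small-subunit paralog that sits where the bacterial protein sits, was at 28.8, 26.9 and 30.6 CPM in young, 20.6, 22.8 and 18.5 CPM in old and 34.3, 31.5 and 36.1 CPM in ICM. Old lay below young, and ICM above young. The change was -0.47 in old vs young (adjusted p = 0.000167), 0.24 in ICM vs young (adjusted p = 0.0180) and 0.71 in ICM vs old (adjusted p = 4.94e-07), and the rise in ICM vs young failed under 3 of 18 alternatives, with adjusted p up to 0.106. MRPL53 of the large subunit was at 26.0 ± 0.94 CPM in young, 21.3 ± 1.4 CPM in old and 33.2 ± 0.51 CPM in ICM (SD, n = 3). Its change was -0.29 in old vs young (adjusted p = 0.00482) and 0.35 in ICM vs young (adjusted p = 0.000417), and its exons share bases with CCDC142 on the same strand. MRPL24 stood at 45.9 ± 3.5 CPM in young, 36.9 ± 2.8 CPM in old and 52.4 ± 0.82 CPM in ICM, and MRPL45 at 32.9 ± 2.5, 28.4 ± 3.1 and 40.8 ± 1.6 CPM (SD, n = 3). Their changes in ICM vs old were 0.50 and 0.52 (adjusted p = 5.39e-06 and 1.65e-05).

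The paralogs MRPS18A, MRPS18B and MRPS18C descend from one bacterial protein and occupy different places in the ribosome. MRPS18A of the large subunit was at 31.7 ± 3.1 CPM in young, 31.8 ± 2.8 CPM in old and 46.0 ± 1.1 CPM in ICM, and rose by 0.54 with ICM (SE 0.08, adjusted p = 6.00e-06). MRPS18B of the small subunit was at 38.1 ± 3.1, 41.1 ± 2.8 and 58.1 ± 2.5 CPM (SD, n = 3) and rose by 0.61 (SE 0.08, adjusted p = 2.63e-07). In old vs young the change of MRPS18A was 0.00 (SE 0.09, adjusted p = 0.989) and that of MRPS18B 0.11 (SE 0.08, adjusted p = 0.214), whereas MRPS18C fell. All 3 paralogs rose with ICM against young. They also rose against old, where MRPS18A changed by 0.53 and MRPS18B by 0.50 (adjusted p = 6.84e-06 and 5.01e-06).

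In ICM vs old the largest falls were small. MRPL42 fell by 0.33 (adjusted p = 0.00676), MRPL52 by 0.29 (adjusted p = 0.000538) and MRPS34 by 0.27 (adjusted p = 0.00147). MRPL52 stood at 60.6 ± 2.4 CPM in young, 73.6 ± 3.1 CPM in old and 60.2 ± 2.3 CPM in ICM (SD, n = 3), so that old was the high group. The call of MRPL42 was lost in 3 of 18 alternatives (adjusted p up to 0.133), that of MRPS34 in 2 of 19 (up to 0.656) and that of MRPL52 in 1 of 19 (0.543). MRPL42 has 5 annotated pseudogenes, and MRPS34 shares exon bases with EME2 on the opposite strand.

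MRPL12, the stalk protein that recruits translation factors and is also known to bind the mitochondrial RNA polymerase, was at 90.2, 86.4 and 86.6 CPM in young, 83.5, 70.0 and 78.8 CPM in old and 72.6, 76.2 and 77.7 CPM in ICM. It fell by 0.22 in ICM vs young (adjusted p = 0.00825) and by 0.18 in old vs young (adjusted p = 0.0246). The second of these failed under 5 of 19 alternatives, with adjusted p up to 0.509. MRPS6 lies in one locus with SLC5A3, and the exons of both overlap on the same strand. Its symbol was at 26.7 ± 2.2 CPM in young, 34.1 ± 2.1 CPM in old and 28.8 ± 1.1 CPM in ICM (SD, n = 3), with a change of 0.37 in old vs young (adjusted p = 0.000603) and 0.12 in ICM vs young (adjusted p = 0.214).

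Restricting mRNA-seq to CDS reads, the region that footprints cover, gave 16 rises and 25 falls in ICM vs young, 9 rises and 30 falls in old vs young, and 20 rises and 9 falls in ICM vs old. On these reads 66.7%, 61.5% and 57.9% of all genes were called, of which 49.9%, 50.0% and 47.7% were rises. The share of the set's mRNA-seq reads in the 5′ UTR averaged 13.8 ± 2.9% in young, 14.0 ± 1.4% in old and 16.6 ± 2.3% in ICM (SD, n = 3), and in the 3′ UTR 14.6 ± 0.51%, 15.3 ± 0.53% and 14.4 ± 0.65%. Over all genes, the 3′ UTR held 24.9 ± 0.22%, 27.6 ± 1.1% and 25.2 ± 0.77%.

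The summed mRNA of the set was 3523, 3376 and 3278 CPM in young, 3107, 3239 and 2889 CPM in old and 3379, 3365 and 3387 CPM in ICM (the plot of summed levels). Old lay below young in every library, and ICM lay within the range of young. On CDS reads alone, young (3971, 3780 and 3603 CPM) and old (3442, 3700 and 3188 CPM) overlapped. The summed footprints were 5823, 4724 and 4661 CPM in young, 4137, 4064 and 3737 CPM in old and 4085, 3888 and 4179 CPM in ICM. Here old and ICM overlapped, and both lay below all young libraries. The highest value, in young replicate 1, rested on 294 reads.

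Beside the set, the 79 cytosolic ribosomal protein genes moved in 1 direction in mRNA-seq, with 76 falls and no rise in ICM vs young (median -0.80) and 77 falls in old vs young (median -0.55). Their summed mRNA was 59919 ± 2947 CPM in young, 39819 ± 4348 CPM in old and 34233 ± 1013 CPM in ICM (SD, n = 3). Their summed footprints were also lower, at 49354 ± 3355 CPM in young, 39088 ± 2523 CPM in old and 38479 ± 3363 CPM in ICM. The 78 nuclear genes for respiratory chain subunits gave 34 rises and 14 falls in ICM vs young (median 0.14) and 20 and 9 in old vs young (median 0.07). Footprints of these genes summed to 14617 ± 1088 CPM in young, 12695 ± 1407 CPM in old and 13929 ± 1049 CPM in ICM. These lists are described side by side, and no difference between them was tested.

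**Figure D3:**
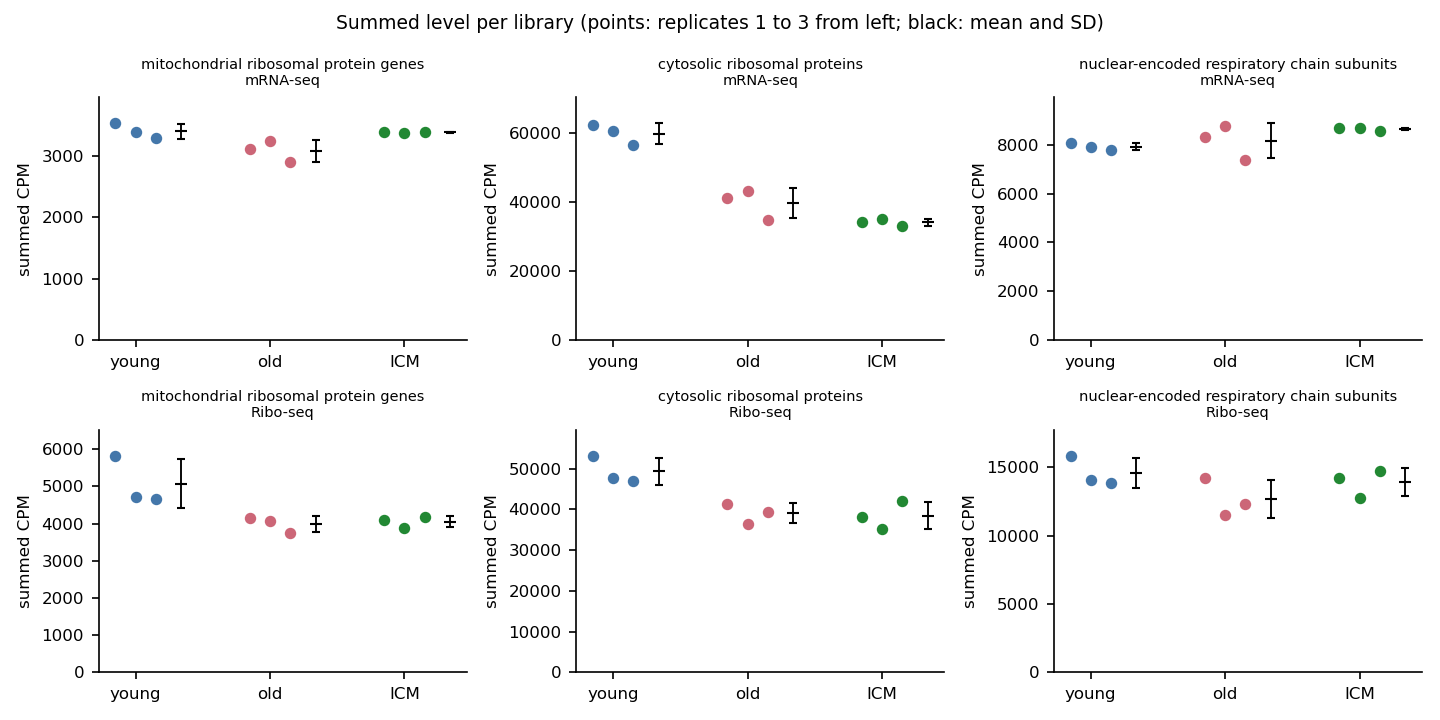
Summed CPM (vertical axes from 0) per library of the 78 mitochondrial ribosomal protein genes, 79 cytosolic ribosomal protein genes and 78 respiratory chain subunit genes in mRNA-seq (top) and Ribo-seq (bottom), with points for the replicates of young, old and ICM and the mean and SD in black. The mitochondrial set lies at 2889 to 3523 CPM of mRNA in all conditions, whereas cytosolic ribosomal protein mRNA is at 56674 to 62427 CPM in young and at most 43275 CPM in old and ICM.

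Footprints were tested for 52 of the 78 genes. The filter on low counts left out 26 genes, which held 97 to 203 footprint reads in all libraries together and 3 to 19 in the 3 ICM libraries. With no filter, 3 of these passed. MRPS28 fell in ICM vs young (-2.38, adjusted p = 0.0395), where 10.8% of all genes were called. MRPS31 and MRPL33 fell in old vs young (-1.37 and -0.997, adjusted p = 0.0190 and 0.0434), where 14.9% were called. Without the 3 lysates that stood apart, MRPS28 lost its call (-2.08, adjusted p = 0.0627). MRPS31 and MRPL33 kept theirs (-1.26 and -0.975, adjusted p = 0.0179 and 0.0196). With the filter, in ICM vs young none of the 52 rose and 2 fell, MRPS23 and MRPL30. That is 3.85% of those tested, against 26.6% of 4643 genes (13.7% up and 12.9% down), and 5 genes had an unadjusted p under 0.05. The median change was -0.26, beside -0.00 over all genes. DESeq2 gave no call among the 52 (14.8% of all genes called), nor did leaving out young replicate 2 or young replicate 3 (none of 34 and 35 tested). Leaving out old replicate 1 or old replicate 3 gave 1 fall of 37 tested, ICM replicate 2 gave 4 falls and 1 rise of 78, and ICM replicate 3 gave 6 falls of 77. Without the 3 lysates that stood apart there were 3 falls of 78 (23.3% of all genes called), as without young replicate 1 (of 77) or old replicate 2 (of 78).

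MRPS23, a small-subunit protein found in mitochondria only, had footprints at 79.2, 76.7 and 67.4 CPM in young (4, 48 and 106 reads), 49.1, 40.2 and 61.6 CPM in old (69, 2 and 30 reads) and 19.7, 27.3 and 22.8 CPM in ICM (4, 2 and 1 reads). The 3 groups did not overlap, with ICM lowest. In Ribo-seq this lack of overlap held for 30.4%, 38.9% and 22.9% of all tested genes in ICM vs young, old vs young and ICM vs old. The MRPS23 footprint change in ICM vs young was -1.69 (SE 0.55, adjusted p = 0.0206), beside -0.46 in mRNA (SE 0.09, adjusted p = 0.000116). This footprint change rested on 7 reads in ICM. The footprint change was -1.79 without the 3 lysates that stood apart (adjusted p = 0.0254) and -1.73 in DESeq2 (adjusted p = 0.106). The call was lost without young replicate 3 (adjusted p = 0.0833) or ICM replicate 1 (adjusted p = 0.195), and the gene was not kept by the low-count filter without young replicate 2.

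MRPL30, a large-subunit protein with a bacterial counterpart, had footprints at 39.6, 63.9 and 70.6 CPM in young (2, 40 and 111 reads), 32.7, 60.4 and 22.6 CPM in old (46, 3 and 11 reads) and 14.8, 0 and 68.5 CPM in ICM (3, 0 and 3 reads). The groups overlapped, since the shallow ICM replicate 3 lay within the range of young. The change was -1.80 in ICM vs young (SE 0.65, adjusted p = 0.0375) and -1.11 in old vs young (SE 0.36, adjusted p = 0.0140). The mRNA fell by 0.23 and 0.49 in the same comparisons (adjusted p = 0.00948 and 7.84e-06). The footprint change in ICM vs young was -2.73 without the lysates that stood apart (adjusted p = 0.00624). The call was lost in 4 of the 12 alternatives in which the gene was tested. These were DESeq2, the fit with the replicate number as a block, and those without ICM replicate 1 (-1.48, adjusted p = 0.253) or ICM replicate 2 (-1.49, adjusted p = 0.0716). Readthrough entries on the same strand share its exon bases.

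In old vs young, 9 of the 52 genes fell in Ribo-seq and none rose. This is 17.3%, against 36.3% of all genes tested (19.3% up and 17.0% down), and the median change was -0.33, beside 0.02 over all genes. Of the 9, MRPL13, MRPL30, MRPL39, MRPL15 and MRPL3 encode large-subunit and MRPS18C, MRPS10, MRPS27 and MRPS16 small-subunit proteins, and their changes ran from -0.78 to -1.67. The count fell to 1, which was MRPL13, in DESeq2 and without young replicate 2, young replicate 3, old replicate 1 or old replicate 3. In these, 52 genes of the set were tested in DESeq2 and 34 to 37 without a library, and the share of all genes called was 11.4% in DESeq2 and 13.2% to 20.5% without a library. The count was 14 (1 rise and 13 falls) without any 1 of the ICM lysates or without the 3 lysates that stood apart, where 76 to 78 genes of the set were tested and 32.6% to 36.8% of all genes were called. With library size only, 10 fell and none rose, while the share of rises among the calls of all genes was 39.1% in place of 53.2%.

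MRPL13, a large-subunit protein with a bacterial counterpart, showed the largest fall. Its footprints were at 178, 134 and 130 CPM in young (9, 84 and 204 reads), 46.2, 80.5 and 28.7 CPM in old (65, 4 and 14 reads) and 148, 68.2 and 22.8 CPM in ICM (30, 5 and 1 reads). Old lay below all young libraries, and ICM spread over both ranges. The change in old vs young was -1.67 (SE 0.28, adjusted p = 1.81e-05), a 3.18-fold fall, and passed in all 17 alternatives, with adjusted p up to 0.0111. It was -1.67 without the 3 lysates that stood apart (adjusted p = 4.59e-06). Its mRNA was at 42.6, 42.8 and 41.7 CPM in young, 29.7, 35.1 and 28.4 CPM in old and 45.4, 42.7 and 41.4 CPM in ICM, a change of -0.44 in old vs young (SE 0.08, adjusted p = 8.64e-05). MRPL13 shares exon bases with MTBP on the opposite strand.

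MRPS18C footprints were at 99.0, 83.1 and 56.6 CPM in young, 36.3, 40.2 and 20.5 CPM in old and 59.1, 40.9 and 91.3 CPM in ICM. Old lay below young in every library. ICM overlapped young, and its lowest library lay just above the highest old one. The change in old vs young was -1.12 (SE 0.34, adjusted p = 0.00884), and the call was lost in DESeq2 (adjusted p = 0.118) and without young replicate 2, young replicate 3, old replicate 1 or old replicate 3 (adjusted p = 0.0552 to 0.243). Without the 3 lysates that stood apart it was -1.06 (adjusted p = 0.00973). MRPL3 footprints were at 139, 141 and 156 CPM in young and 78.9, 121 and 94.4 CPM in old, without overlap, a change of -0.78 (SE 0.26, adjusted p = 0.0176) beside the fall of 0.85 in its mRNA. Without the 3 lysates that stood apart it was -0.82 (adjusted p = 0.00873).

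In ICM vs old, MRPL13 was the 1 gene that passed in Ribo-seq, with a rise of 1.36 (SE 0.41, adjusted p = 0.0213), and no gene fell. This is 1.92% of the 52, against 13.4% of all genes (5.79% up and 7.62% down). Leaving out ICM replicate 1, which held 30 of the 36 ICM reads, left a change of 0.16 (adjusted p = 0.930). Leaving out young replicate 2, young replicate 3, old replicate 1 or old replicate 3 also ended the call, with adjusted p from 0.0720 to 0.143, as did DESeq2 (adjusted p = 0.299). Leaving out ICM replicate 2 gave 1 rise and 2 falls of 78 tested, and leaving out ICM replicate 3 gave 1 and 1 of 77. Without the 3 lysates that stood apart, the change of MRPL13 was 1.501 (adjusted p = 0.00967).

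**Figure D4:**
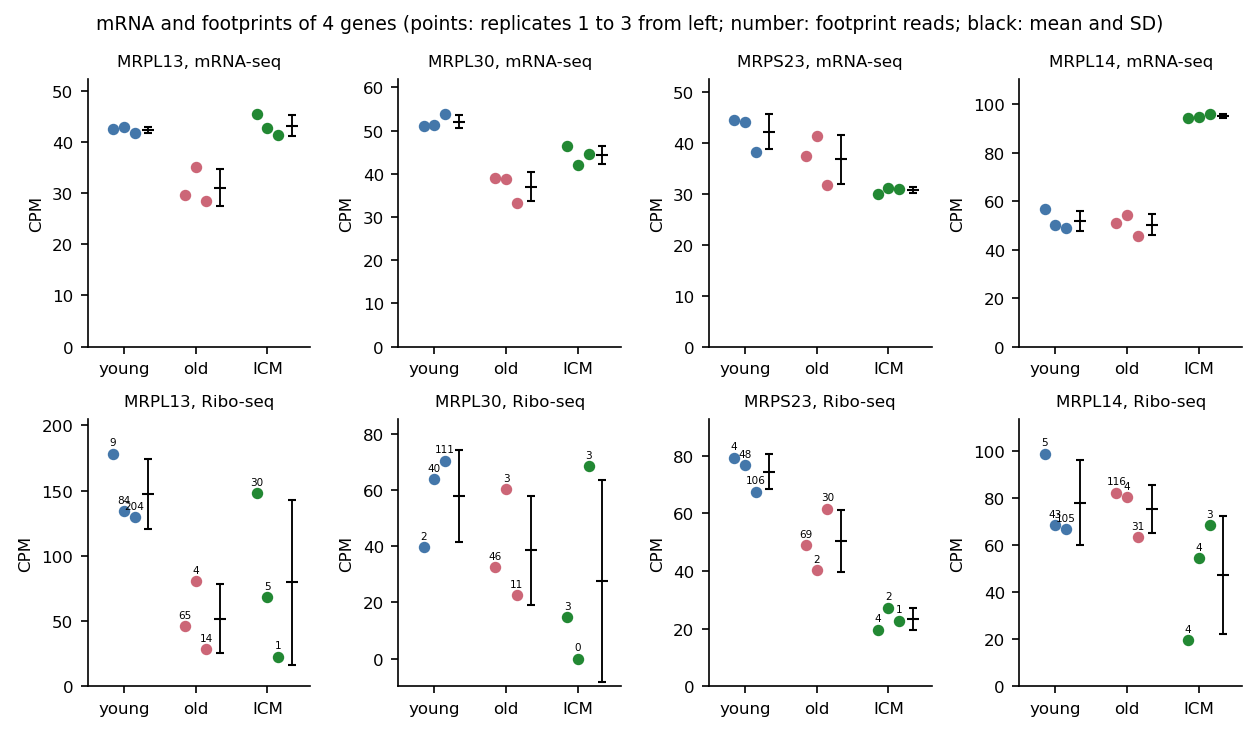
mRNA-seq (top) and Ribo-seq (bottom) level in CPM of MRPL13, MRPL30, MRPS23 and MRPL14 in the 3 replicates of young, old and ICM, with the mean and SD in black and the number of footprint reads above each Ribo-seq point. MRPL13 footprints are at 130 to 178 CPM in young and 28.7 to 80.5 CPM in old, and MRPL14 mRNA is high in ICM while its ICM footprints rest on 3 or 4 reads per library.

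The ratio of footprints to mRNA (translational efficiency) was tested for the same 52 genes in 1 model over both assays, as the term by which the condition's effect differs between them. In ICM vs young 1 gene fell, MRPL14, and none rose. This is 1.92%, against 2.38% of 4618 genes (1.36% up and 1.02% down), with 7 genes at an unadjusted p under 0.05 and a median of -0.20, beside 0.06 over all genes. In ICM vs old MRPL14 was again the 1 gene that passed, against 0.346% of all genes (0.152% up and 0.195% down). In old vs young no gene passed in edgeR, against 1.43% of all genes (0.693% up and 0.736% down). There, 2 genes had an unadjusted p under 0.05, and DESeq2 made no call (0.888% of all genes called). The fit without the lysate as a block gave 2 falls of 52, against 8.86% of all genes. Leaving out any 1 of the ICM lysates also gave 2 falls (76 to 78 tested, 1.40% to 1.73% of all genes called). MRPL13 was nearest, at -1.18 (SE 0.32, adjusted p = 0.0568).

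MRPL14 footprints were at 99.0, 68.7 and 66.8 CPM in young (5, 43 and 105 reads), 82.5, 80.5 and 63.6 CPM in old (116, 4 and 31 reads) and 19.7, 54.6 and 68.5 CPM in ICM (4, 4 and 3 reads). ICM replicates 1 and 2 lay below young and old, and ICM replicate 3 lay within their ranges. Footprints alone changed by -0.97 in ICM vs young (SE 0.51, adjusted p = 0.159), while mRNA rose by 0.87. Without the 3 lysates that stood apart, footprints changed by -1.30 (adjusted p = 0.0871). The ratio changed by -1.90 (SE 0.48, adjusted p = 0.0241) and, in ICM vs old, by -2.05 (SE 0.48, adjusted p = 0.0402). These calls rested on 11 ICM reads. Without ICM replicate 1 the changes were -1.24 and -1.41 (adjusted p = 0.280 and 0.264), and without young replicate 2, young replicate 3, old replicate 1 or old replicate 3 the adjusted p was 0.0605 to 0.169 and 0.148 to 0.384. Without the 3 lysates that stood apart they were -2.24 and -2.42 (adjusted p = 0.0155 and 0.0352).

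Summed over the set and taken over CDS reads in both assays, footprint CPM per mRNA CPM reached 1.47, 1.25 and 1.29 in the young lysates. The old lysates had 1.202, 1.098 and 1.17, and the ICM lysates 1.09, 1.05 and 1.14. Young lay above both other groups, which overlapped. The small-subunit genes had 1.27 ± 0.02 in young, 1.17 ± 0.04 in old and 1.02 ± 0.01 in ICM (SD, n = 3). The large-subunit genes had 1.36 ± 0.16, 1.149 ± 0.065 and 1.13 ± 0.065. In ICM the small-subunit ratios rested on 238, 86 and 51 footprint reads. Counting noise at such depth is larger than their SD, which is therefore no measure of precision. Depth moved with condition here, since the ICM libraries held 183 to 829 reads of the set, and its part in the ratio was not tested.

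Footprint levels of different genes were compared per kilobase of coding sequence, whose length ran from 195 to 1317 nucleotides with a median of 585. In young cells the mean level ran from 34.4 to 675 CPM per kilobase, a 19.6-fold range, with a median of 95.0 (the plot of footprints per coding length). MRPL52 was highest at 675 ± 544 CPM per kilobase, MRPS21, with a bacterial counterpart in the small subunit, followed at 600 ± 207, and MRPL13 at 276 ± 50.2 CPM per kilobase (SD, n = 3). In MRPL52, young replicate 1 gave 1299 on 24 reads, against 419 and 306 in the deeper libraries. The lowest were MRPL45, which anchors the exit tunnel side to the inner membrane, at 37.7 ± 16.2, MRPS30 at 36.99 ± 7.1 and MRPS26 at 34.4 ± 32.3. Of 77 pairs of neighbours in this order, 1 was further apart than the sum of both SDs, so most neighbours did not differ beyond their spread.

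In old cells MRPS21 (520 ± 120) and MRPL52 (406 ± 146 CPM per kilobase) were again the highest 2, as in ICM (570 ± 133 and 401 ± 23.0). MRPS31 was the lowest in both, at 9.57 ± 8.80 in old and 9.19 ± 9.66 in ICM, and stood 72nd of 78 in young at 43.6 ± 20.1 CPM per kilobase. MRPS21 has 8 annotated pseudogenes, the most of any gene in the set.

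**Figure D5:**
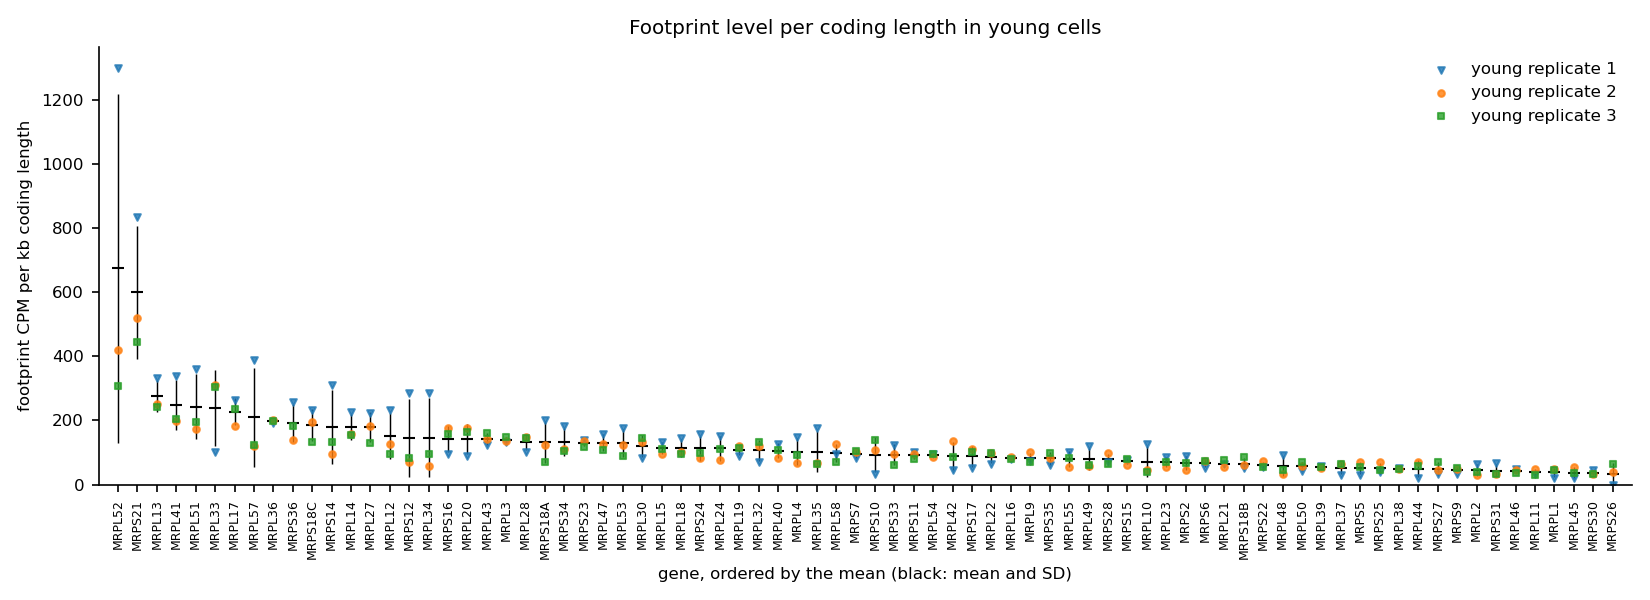
Footprint level in young cells (CPM per kilobase of coding sequence, vertical axis from 0) of the 78 genes, ordered by their mean, with symbols for replicates 1 to 3 and the mean and SD in black. MRPL52 and MRPS21 stand highest with means of 675 and 600 and with replicate 1 above the other replicates, and the means of all other genes lie between 34.4 and 276.

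Genes that act with the mitochondrial ribosome also moved in both directions in mRNA-seq. Of 16 translation factors, 4 rose and 8 fell in ICM vs young, while old vs young gave 2 rises and 9 falls. LRPPRC, which stabilises mitochondrial mRNAs, was at 96.4 ± 5.5 CPM in young, 65.2 ± 1.3 CPM in old and 62.2 ± 1.2 CPM in ICM (change -0.63 in ICM vs young, adjusted p = 8.77e-09). GFM2, a ribosome recycling factor, rose by 0.53 (adjusted p = 1.99e-06) and C12orf65, which rescues stalled ribosomes, fell by 0.51 (adjusted p = 0.000323).

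Of 29 assembly and rRNA factors, 9 rose and 9 fell in ICM vs young, while old vs young gave 5 rises and 12 falls. SPG7, a subunit of the protease that trims MRPL32, was at 60.6 ± 4.2 CPM in young, 87.3 ± 2.5 CPM in old and 111 ± 4.0 CPM in ICM (change 0.88, adjusted p = 7.36e-11). MPV17L2 rose by 0.85 (adjusted p = 3.00e-08), and MRM1, an rRNA methyltransferase, fell by 0.88 (adjusted p = 0.000254). Of 6 further genes listed with the mitochondrial ribosome under other names, 1 rose and 3 fell in ICM vs young. DAP3 rose (0.23, adjusted p = 0.00659). PTCD3 (-0.51, adjusted p = 2.36e-06), CHCHD1 (-0.21, adjusted p = 0.0336) and OXA1L (-0.21, adjusted p = 0.0105), the inserter of nascent chains into the inner membrane, fell.

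Of 12 regulators of mitochondrial gene expression tested, 1 rose and 7 fell in ICM vs young, and 2 rose and 7 fell in old vs young. MYC was at 66.2 ± 2.6 CPM in young, 42.0 ± 4.7 CPM in old and 33.7 ± 2.2 CPM in ICM (change -0.97, adjusted p = 3.22e-10). TFAM, which packages mitochondrial DNA, was at 27.7 ± 2.8, 15.4 ± 0.97 and 14.3 ± 1.6 CPM (change -0.95, adjusted p = 2.02e-08), and NRF1 at 12.5 ± 0.52, 8.60 ± 0.40 and 6.70 ± 0.70 CPM (SD, n = 3; change -0.89, adjusted p = 7.50e-07). Of 21 protein import genes, 6 rose and 6 fell in ICM vs young, while old vs young gave 4 rises and 10 falls. TOMM22 and TIMM44 fell by 0.66 and 0.65 with ICM (adjusted p = 1.48e-08 and 9.44e-08), and GRPEL1 rose by 0.52 (adjusted p = 6.20e-07).

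By position, the 78 genes were spread over 21 chromosomes (GRCh37). MRPL14 lies at chr6:44081188-44095189 on the minus strand, MRPL41 at chr9:140446331-140447007 on the plus strand, MRPL3 at chr3:131181056-131221827 on the minus strand and MRPS31 at chr13:41303264-41345326 on the minus strand. Exon bases were shared with another protein-coding or long non-coding gene in 39 of the 78, and 36 had at least 1 annotated pseudogene named after them, 79 in all. For these genes single values are uncertain, since how reads with several matches were placed in these libraries was not given in the sources used here. Only some of these cases are named above. Others include MRPL12, which shares exon bases with a protein-coding entry on the same strand. MRPS18C shares exon bases with ABRAXAS1 on the opposite strand and has 3 annotated pseudogenes, and MRPS33 also has 3.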

How the data were processed

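Ribo-seq and mRNA-seq of 3 young, 3 old and 3 ICM lysates gave 18 libraries. The deposited tables hold estimated counts per gene symbol and region (5′ UTR, CDS, 3′ UTR), which the authors made from reads on GRCh37. Per the labels' processing notes the tools were STAR 2.6.0c, featureCounts, DESeq2 and deepTools. The methods describe mapping with STAR at default settings and counting of unique reads with featureCounts for another RNA-seq experiment of the study, and for these libraries variance-stabilised DESeq2 values passed to anota2seq. The mapping and counting settings behind these tables were not given in the sources used here. Values were rounded to whole counts. Ribo-seq used CDS reads and mRNA-seq the sum of the 3 regions.

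Each assay was fitted over its 9 libraries with edgeR 4.0.16 (TMM scaling, filterByExpr, glmQLFit and glmQLFTest, two-sided, Benjamini-Hochberg adjusted p under 0.05 over all tested genes) in R 4.3.3. The footprint to mRNA ratio was fitted over 18 libraries with the lysate as a block. The fits were run on simulated counts with a limit on false calls. A minimum recovery of changed genes was required for mRNA-seq only. This check therefore does not show that the footprint and ratio fits find real changes. Alternatives were DESeq2 1.42.0, other scalings, no filter, other thresholds, CDS reads only, thinned mRNA-seq, blocks and left-out libraries. The replicates of each group differed by more than sampling noise (lowest chi-square per degree of freedom 1.32).

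Members, lists and the rule for named genes (the largest called changes per comparison, the MRPS18 paralogs, MRPL12, MRPS6, the levels per length at both ends, and the largest changes of each other list) were chosen with earlier results of these data known. MRPL24, MRPL45 and the genes listed by motif were named outside this rule, after their values were seen. Coding lengths came from GENCODE v44 lifted to GRCh37, in place of the planned RefSeq protein lengths, and promoters from RefSeq on GRCh38.p14. Genes of mitochondrial DNA were not analysed here.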

Additional observations from a re-analysis of the deposited data

How the results depend on the processing

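Of 165 recomputed counts, 101 stayed within 1.5 times the reported one. Of 791 recomputed values of named genes, 722 kept their side of the threshold, and their direction where they passed. Where neither value passed, direction was not compared and could change, as for MRPS18A in old vs young (-0.09 to 0.06). A further 68 kept the direction and lost the call. The 1 that passed and reversed was MRPL12 in ICM vs young. It was 0.0854 (adjusted p = 0.849) with mRNA-seq thinned to the paired Ribo-seq total. That thinning left 3, 12 and 1 mRNA calls of 41 genes tested in ICM vs young, old vs young and ICM vs old (33.8%, 48.0% and 22.1% of all genes called). It left no ratio call of 34 in ICM vs young or ICM vs old (1.18% and 0.227%). The number of genes tested moved with the setting and is given beside each count. What else moved the counts was not tested.

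Footprint calls in ICM vs young were 0 of 52 in DESeq2 (14.8% of all genes called), 4 of 78 with no filter (10.8%), 5 of 52 at an adjusted p under 0.15 (38.5%) and 0 of 21 with the 2 compared groups alone (26.8%). In old vs young they were 1 of 52 (11.4%), 8 of 78 (14.9%), 14 of 52 (50.5%) and 20 of 78 (41.8%) in the same order, and 14 of 78 (32.6%) without young replicate 1, old replicate 2 and ICM replicate 3 together. In ICM vs old they were 0 of 52 (7.34%), 0 of 78 (5.84%), 2 of 52 (22.0%) and 0 of 14 (15.3%). With 1 library left out, 34 to 78 genes were tested and the counts were 0 to 6, 1 to 14 and 0 to 3 in the 3 comparisons. The shares of all genes called were 11.6% to 25.2%, 13.2% to 36.8% and 7.63% to 12.6%. Calls of the ratio in ICM vs young were 2 of 52 at an adjusted p under 0.15 (6.78% of all genes called) and 0 of 21 with the compared groups alone (1.53%). In old vs young they were 1 of 52 with RLE scaling (1.32%), with library size only (1.36%) or at an adjusted p under 0.15 (2.32%). They were 1 of 78 without the 3 lysates together (1.42%), 3 of 78 with the compared groups alone (3.09%) and 2 of 52 with no replicate block (8.86%). In ICM vs old they were 0 of 52 in DESeq2 (0.455%) and 0 of 14 with the compared groups alone (0.281%). With 1 lysate left out the ratio calls were 0 to 2, 0 to 2 and 0 to 1 (0.848% to 2.07%, 0.507% to 1.73% and 0.076% to 0.703% of all genes). mRNA calls of 78 with 1 library left out ran from 35 (without young replicate 2) to 49 in ICM vs young, from 37 (without young replicate 1 or old replicate 3) to 49 in old vs young, and from 31 (without old replicate 1) to 38 in ICM vs old. The shares of all genes called were 66.4% to 72.5%, 60.6% to 65.4% and 57.8% to 63.4%.

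Conditions share replicate numbers. The deviations of same-numbered libraries from their group means correlated at -0.093 to 0.129 in mRNA-seq (2 of 9 pairs over 0.1). In Ribo-seq they correlated at 0.002 to 0.039, so the numbers were not taken to pair the samples. The 2 assays of a lysate correlated no more closely, at -0.071 to 0.119 (1 of 9 over 0.1). The ratio fit still blocked on lysate, since the methods describe both libraries as made from 1 lysate. Without that block the ratio was called in 6.60%, 8.86% and 1.30% of all genes in ICM vs young, old vs young and ICM vs old. With it the shares were 2.38%, 1.43% and 0.346%. With the replicate block the mRNA calls were 45, 48 and 38 of 78 in ICM vs young, old vs young and ICM vs old. The shares of all genes called were 71.4%, 66.7% and 63.8%. The footprint calls were 0, 1 and 0 of 52, against 16%, 14.1% and 9% of all genes. MRPS23 in ICM vs young had an adjusted p of 0.104 under the block.

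The footprint results rest on few reads. The ICM libraries held 183 to 829 reads over the set, and the filter left out 26 genes.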
